A study of Homo sapiens with 4 samples.

Results

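The genes described here encode the machinery that writes, reads, removes and carries forward methylation of lysine 9 on histone H3 (H3K9) and methylation of DNA, together with partners of HP1 proteins, methyltransferases of lysine 20 on histone H4 (H4K20) and histone deposition factors. They were chosen by function, as 35 named genes of the 37450 features in the count table, and each of the 35 had a row and passed the filter on low counts. Messenger RNA was sequenced from 143B, an established human osteosarcoma cell line, on day 2 after lipid transfection of siRNA. The groups were cells given siRNA against CBX3 (siCBX3, 2 libraries, labelled as CBX3 knockdown) and cells given a non-targeting siRNA (siNC, 2 libraries, labelled WT). Every library came from this 1 line, grown in the same medium with serum and antibiotics, and each group received the transfection reagent. Nothing in the labels says that the 2 libraries of a group were separate cultures, and the spread that the p-values rest on is that between libraries, which may be technical only.

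CBX3 encodes HP1γ, a protein that binds methylated H3K9 with its chromodomain and recruits partners through its chromoshadow domain. In heterochromatin, H3K9 methyltransferases lay down the mark that HP1 proteins bind, HP1 proteins in turn bring in more methyltransferase, and the mark is carried through replication with the help of histone chaperones. DNA methylation is copied onto new DNA by DNMT1, which UHRF1 guides to sites that carry the methyl group on a single strand. The comparison asked how the RNA levels of this machinery differed once CBX3 was depleted.

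Total counts were 36509298 and 38717507 in the siCBX3 libraries and 37318382 and 40336907 in the siNC libraries. CBX3 had 2020 and 2163 counts in siCBX3 cells, against 20311 and 21384 in siNC cells, and its log2 fold change was -3.19 (SE 0.08, edgeR adjusted p 2.73e-20). All 8 bone and mesenchymal markers were tested and 5 rose, with summed levels of 883 to 896 RPKM in siCBX3 and 263 to 274 RPKM in siNC. The sum came mostly from SPARC, VIM and FN1 in siCBX3 and from VIM, SPARC and CD44 in siNC. FN1 had 233.4 and 227.5 RPKM in siCBX3, against 14.1 and 14.6 RPKM in siNC. Of 8 epithelial markers 5 were tested and 3 fell (183 to 191 RPKM in siCBX3, 315 to 327 RPKM in siNC, mostly KRT18 and KRT8), while CDH1 had at most 8 counts. Of 8 leukocyte markers 5 were tested and 1 rose (267 to 291 RPKM in siCBX3, 190.2 to 199.5 RPKM in siNC, nearly all CD68), while PTPRC had at most 18 counts. Of 8 endothelial markers 6 were tested and 1, TIE1, rose (19.1 to 21.01 RPKM in siCBX3, 16.19 to 17 RPKM in siNC), while CDH5 had at most 4 counts. The part of these marker differences in the results below was not tested. Counts from 1 to 20 were even numbers in 74.3% to 75.6% of features, so a count need not be an independent fragment, and precision from counts covers counting error only.

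The members ranged widely in level. Levels of different genes are compared here per length, as RPKM, which the authors deposited and which are scaled by the library total. DNMT1, the maintenance DNA methyltransferase, was highest in both groups, with 69.8 and 69.9 RPKM in siCBX3 and 101 and 94.8 RPKM in siNC. TET1, which oxidises methylcytosine, was lowest, with 0.53 and 0.63 RPKM in siCBX3 and 0.69 and 0.70 RPKM in siNC. In siNC cells DNMT1 was followed by UHRF1, DAXX, CHAF1A, MPHOSPH8, TRIM28 and HELLS, and neighbours in that order such as UHRF1 (57.7 ± 0.232 RPKM, SD, n = 2) and DAXX (56.8 ± 1.95 RPKM) lay within their spread. In siCBX3 cells UHRF1 had rank 5, at 32.5 ± 0.401 RPKM, below DAXX (51.5 ± 1.88), MPHOSPH8 (48.2 ± 1.64) and CHAF1A (47.1 ± 0.774), and HELLS had rank 9. The median member had 8.0 RPKM in siCBX3 and 7.10 RPKM in siNC, against 2.42 and 2.48 RPKM for all tested genes. The lowest count of any member in any library was 105, for SUV39H1.

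**Figure D1:**
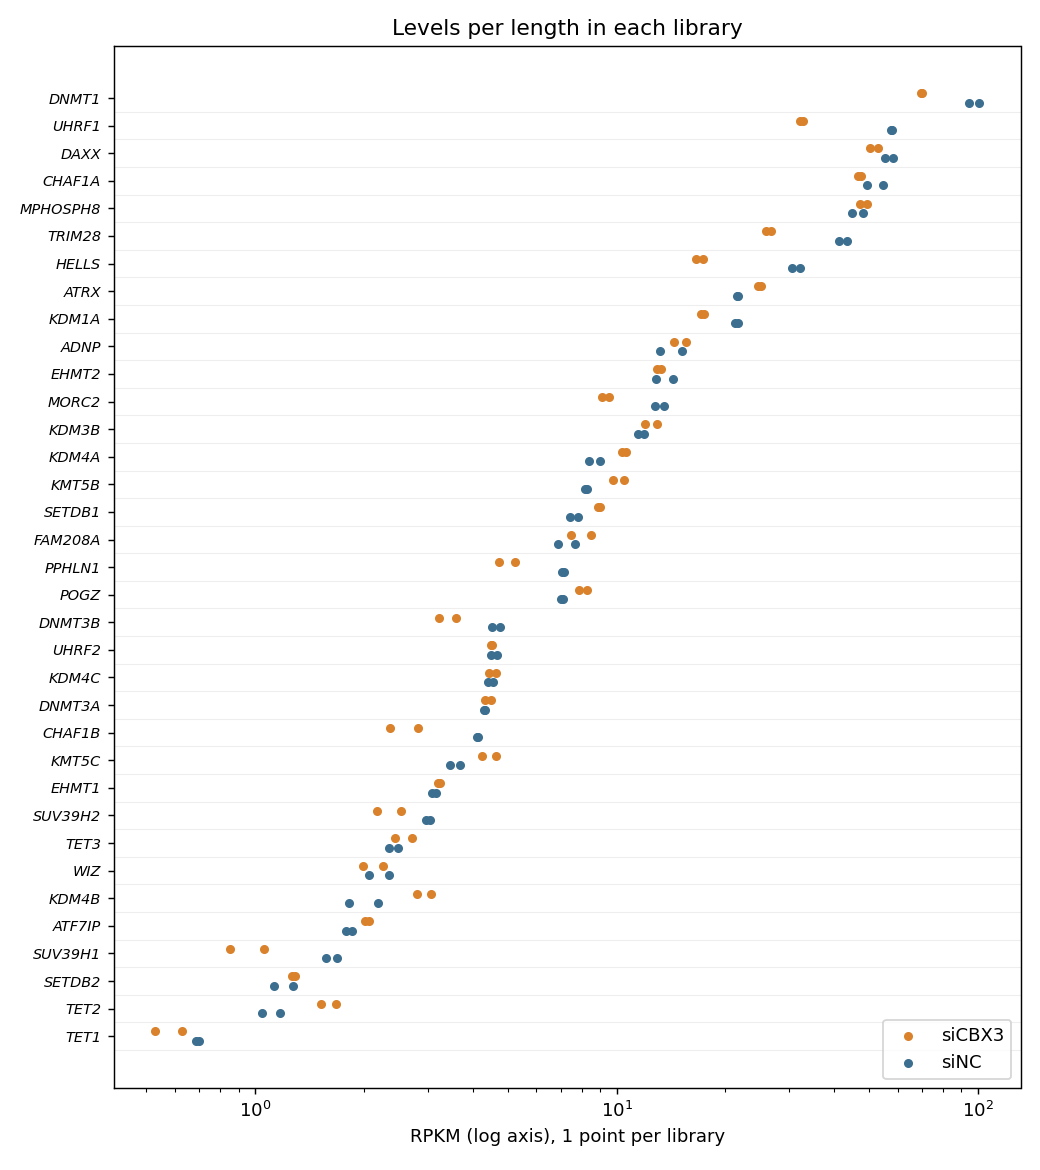
RPKM of each member in each library on a log axis, 1 point per library, siCBX3 above siNC within each gene and genes in order of their siNC mean. DNMT1 is at the top, near 69.8 RPKM in siCBX3 and 97.8 RPKM in siNC, and TET1 at the bottom, near 0.578 and 0.693 RPKM.

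Genes were called changed at an edgeR adjusted p under 0.05. Of the 35 members 10 rose and 10 fell, which is 57.1%, while 48.4% of all 20999 tested genes were called (24.4% higher and 24.0% lower). Where tested genes averaged 50 counts or more, the same fit called 56.3% (29.1% higher and 27.2% lower), a share close to that of the members. No member reached an absolute log2 fold change of 1, which 12.8% of tested genes passed together with the adjusted p. Member fold changes ran from -0.81 to 0.63, with a median absolute log2 fold change of 0.27, against 0.39 over all tested genes. The median signed value was 0.10 for members and -0.01 for all tested genes. The libraries of the 2 groups did not overlap for 33 members, 19 higher and 14 lower, where 73.9% of tested genes showed no overlap (36.4% higher and 37.4% lower). That 73.9% includes genes of low count, and the share among genes averaging 50 counts or more was not computed. The 2 figures therefore do not show a trait particular to the members. On log2(RPKM + 1) with limma, which uses library totals, 5 members were called higher and 10 lower, and the same setting called 40.9% of all tested genes (3584 higher and 5013 lower).

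**Figure D2:**
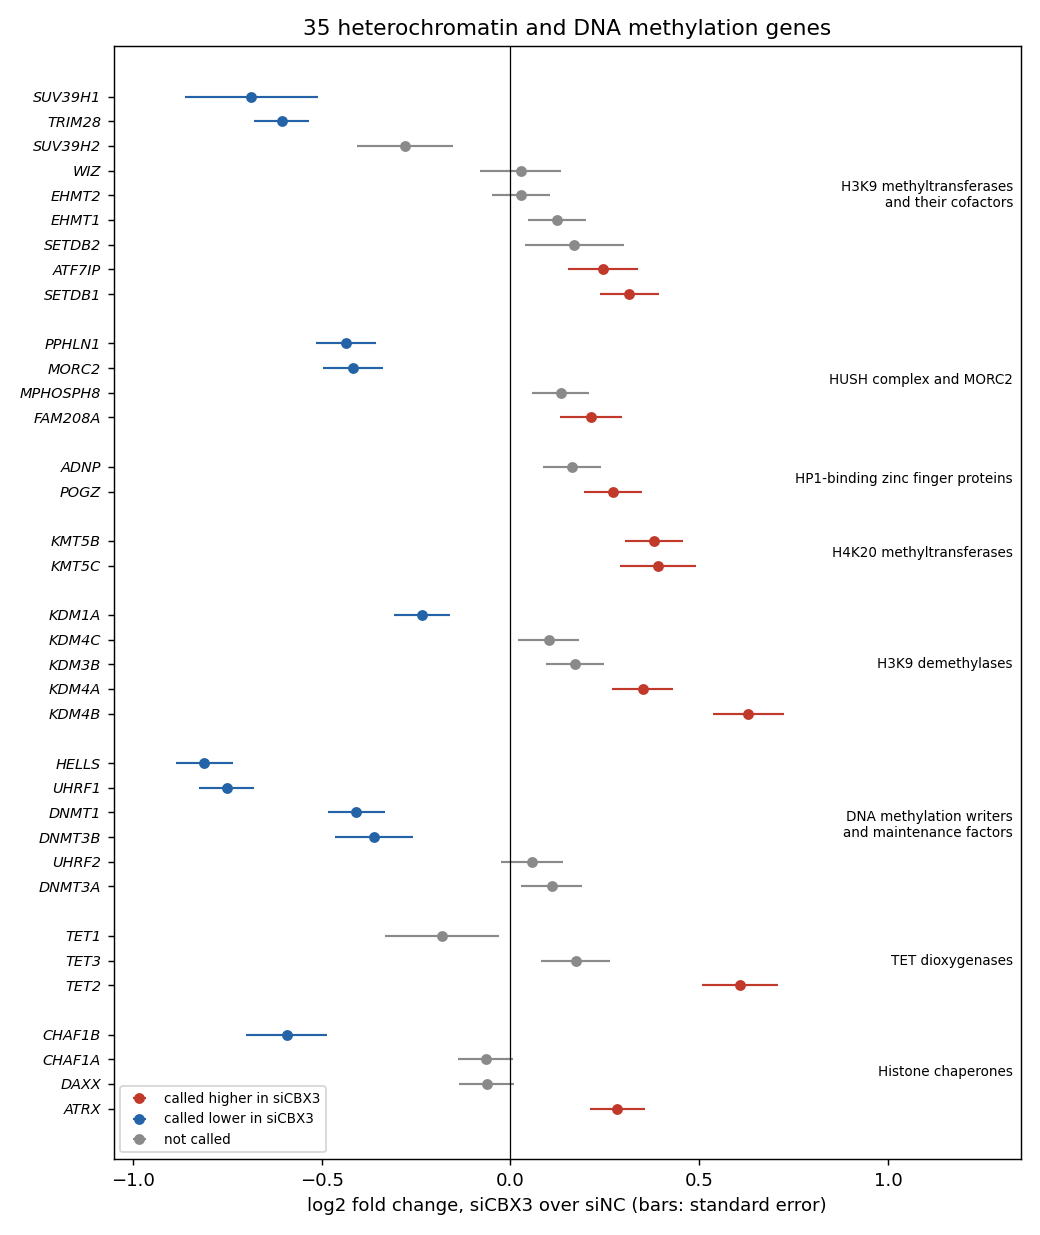
Log2 fold change of each member, siCBX3 over siNC, with its standard error, grouped by role and coloured by the edgeR call. HELLS (-0.81) and UHRF1 (-0.75) lie farthest to the left, and KDM4B (0.63) and TET2 (0.61) farthest to the right.

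The members that write and maintain DNA methylation were lower or did not pass the test. Of 6 genes for writing and maintaining DNA methylation 4 fell and 0 rose, with a median log2 fold change of -0.38. Of all tested genes 24.0% were called lower and 24.4% higher. HELLS, a chromatin remodeller needed for DNA methylation of repeats (chromosome 10, 94501434 to 94613905, plus strand, GRCh38), had 182 and 172 CPM in siCBX3 cells, against 323 and 297 CPM in siNC cells. Both siCBX3 libraries lay well below both siNC libraries. HELLS fell by 0.81 on the log2 scale (SE 0.08, edgeR adjusted p 2.83e-09), which is 1.75-fold.

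UHRF1, the reader of hemimethylated DNA that recruits DNMT1 (chromosome 19, 4903080 to 4962154, plus strand), had 174 and 169 CPM in siCBX3 and 295 and 283 CPM in siNC. It fell 1.68-fold, by 0.75 on the log2 scale (SE 0.07, edgeR adjusted p 5.87e-09), with the groups far apart. DNMT1 itself (chromosome 19, 10133345 to 10231286, minus strand) had 708 and 699.6 CPM in siCBX3 and 979 and 889 CPM in siNC. The 2 siNC libraries differed more from each other than the siCBX3 libraries did, yet the groups did not overlap. DNMT1 fell by 0.41 (SE 0.08, edgeR adjusted p 7.04e-05).

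DNMT3B, a de novo DNA methyltransferase, had 17.3 and 15.2 CPM in siCBX3 and 21.8 and 20.01 CPM in siNC. It fell by 0.36 on the log2 scale (SE 0.10, edgeR adjusted p 0.00569), but without siCBX3 replicate 2 the call ended (-0.27, adjusted p 0.0989). Its relative DNMT3A had 56.0 and 53.0 CPM in siCBX3 and 51.5 and 49.6 CPM in siNC, a log2 fold change of 0.11 that did not pass the test (edgeR adjusted p 0.278). UHRF2, the paralog of UHRF1, had 46.5 and 45.5 CPM in siCBX3 and 44.2 CPM in each siNC library (log2 fold change 0.06, edgeR adjusted p 0.595), and its sign turned with library totals (-0.02).

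Promoter sequences are shown for this group because 3 of the 4 genes that fell in it hold E2F-type words, which are known from promoters of genes expressed at the onset of S phase. Windows of 250 bases before to 50 bases after each annotated start came from RefSeq (GRCh38.p14) and matched 32 of the 35 members, with TRIM28, ATRX and DAXX unmatched. The words TTTCCCGC, TTTCGCGC, TTTGCCGC and TTTGGCGC, searched on both strands, occurred in 3.31% of all 35116 windows and in 3.99% of genes with a window. Among members these 4 words occurred in 3 genes, all of which fell (3 of the 9 fallen members with a window). They occurred in 0 of 9 that rose and 0 of 14 not called. Each line gives 30 bases on the strand of the gene with the word in capitals. Starts are those of RefSeq, and at DNMT1, UHRF1 and HELLS they lie inside the gene spans given above.
DNMT1 (chr19:10194937-10194966, minus strand, word from 2 bases before the start): catcggtttccGCGCGAAAagccggggcgc
UHRF1 (chr19:4909476-4909505, plus strand, word from 14 bases before a start): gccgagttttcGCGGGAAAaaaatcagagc
UHRF1 (chr19:4909973-4910002, plus strand, word from 160 bases before another start): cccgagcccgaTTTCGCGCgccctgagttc
HELLS (chr10:94545701-94545730, plus strand, word from 76 bases before the start): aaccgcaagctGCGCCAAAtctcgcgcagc
HELLS (chr10:94545769-94545798, plus strand, word from 8 bases before the start): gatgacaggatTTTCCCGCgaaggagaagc
The word GGCGGGAA, in 3.16% of windows and 3.79% of genes, was found at UHRF1 and at CHAF1A, which was not called.
CHAF1A (chr19:4402622-4402651, plus strand, word from 7 bases before the start): ggtcgccgcggTTCCCGCCaaatacgagcg
Other words were counted in the same windows. TTTGAA (15.2% of windows, 18.2% of genes) was found at 3 members that rose, 1 that fell and 2 not called. CACGTG (7.26% of windows, 8.77% of genes) was found at 3 that rose, 0 that fell and 5 not called, and CCAAT (34.6% of windows, 39.7% of genes) at 6, 5 and 8. ACTTCCGG (4.14% of windows, 4.95% of genes) was found at PPHLN1 alone among the members, a YY1-type word (1.46% of genes) at SUV39H2 and KMT5B, and an NRF1-type word (1.52% of genes) and a pair of NF-κB-type words (0.407% of genes) at 0 members. The words were chosen after the fold changes had been seen and may overlap one another, and a match shows letters, not a bound factor.

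**Figure D3:**
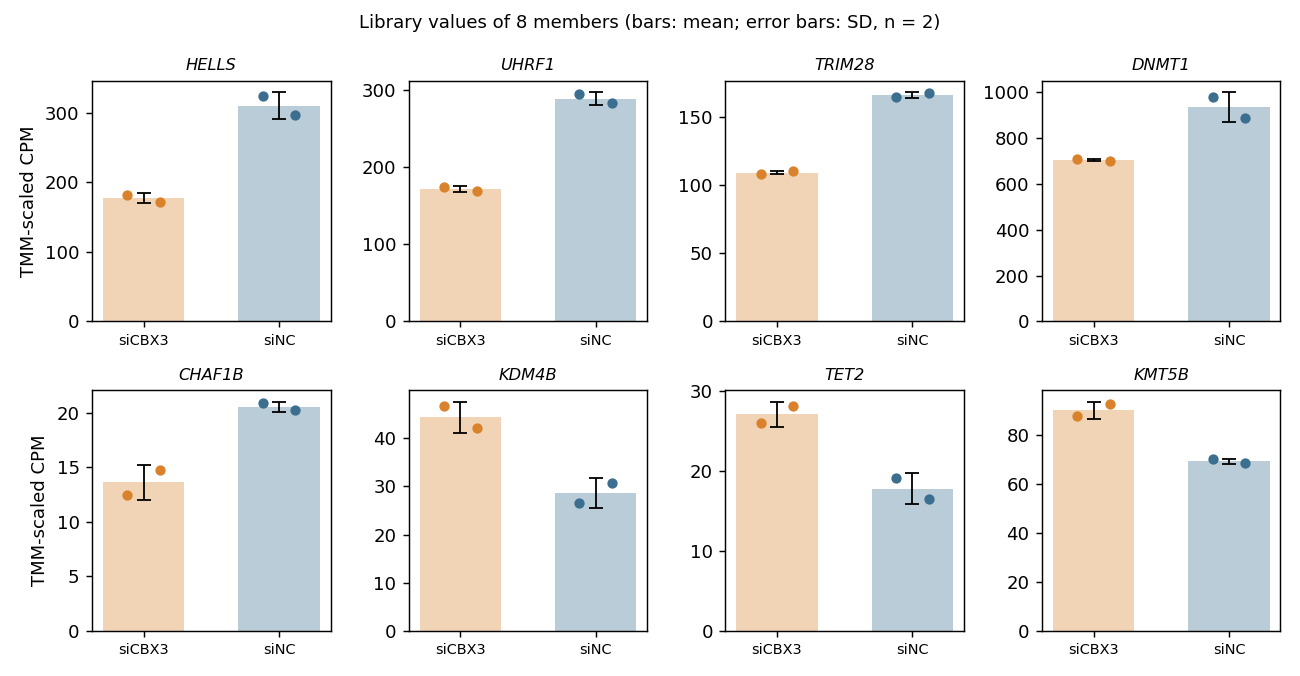
TMM-scaled CPM of 8 members, siCBX3 left of siNC, with 1 point per library, bars for the mean and error bars for the SD (n = 2). HELLS, UHRF1, TRIM28, DNMT1 and CHAF1B are lower in siCBX3, and KDM4B, TET2 and KMT5B are higher, with no overlap between groups in any panel.

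Most genes of an S-phase list fell as well. Of 40 S-phase and replication genes outside the members 33 fell and 0 rose (82.5%), and 7 were not called. Their median log2 fold change was -0.54. Of all tested genes 24.0% were called lower, and of those averaging 50 counts or more 27.2%. RPA2, which binds single-stranded DNA, had -1.32, the replication checkpoint gene CLSPN -0.95, MCM10 -0.93, TYMS, which makes thymidylate, -0.88, the helicase subunit MCM6 -0.78 and the cyclin gene CCNE2 -1.01. HELLS, UHRF1, DNMT1 and CHAF1B are themselves known as genes expressed most in S phase. CHAF1A, the CAF-1 partner of CHAF1B and a holder of an E2F-type word, was not called (-0.07, edgeR adjusted p 0.487). The part of the S-phase genes' difference in the falls of HELLS, UHRF1, DNMT1 and CHAF1B was not tested. In these bulk libraries fewer cells in S phase and less of an RNA per cell cannot be told apart.

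Among H3K9 methyltransferases and their cofactors, 2 of 9 genes rose, 2 fell and 5 did not pass the test. These shares (22.2% each way) lay near those of all tested genes (24.4% higher and 24.0% lower). TRIM28, the corepressor that joins KRAB zinc finger proteins to SETDB1 and HP1 (chromosome 19, 58544091 to 58550722, plus strand), had 108 and 110.0 CPM in siCBX3 cells, against 165 and 167 CPM in siNC cells. The libraries of each group lay close to one another and far from the other group. TRIM28 fell 1.52-fold (log2 fold change -0.60, SE 0.07, edgeR adjusted p 2.27e-07).

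SETDB1, the methyltransferase that works with TRIM28 (chromosome 1, 150926263 to 150964744, plus strand), moved the other way, with 65.4 CPM in each siCBX3 library and 52.1 and 53.2 CPM in siNC. It rose by 0.31 on the log2 scale (SE 0.08, edgeR adjusted p 0.00184), and the adjusted p was 0.0527 on log2(RPKM + 1) and 0.0513 on log2(RPKM + 0.1) with limma. ATF7IP, which protects SETDB1 from degradation, had 28.2 and 27.1 CPM in siCBX3 and 24.2 and 22.5 CPM in siNC. Its rise of 0.25 (SE 0.09, edgeR adjusted p 0.0313) lost its call under 8 of 15 alternatives, among them without siCBX3 replicate 1 (adjusted p 0.172), siCBX3 replicate 2 (0.0705) or siNC replicate 2 (0.142), over a range of 0.0189 to 0.334. SETDB2, a relative of SETDB1, had 8.74 and 8.79 CPM in siCBX3 and 7.46 and 8.12 CPM in siNC (0.17, edgeR adjusted p 0.304).

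SUV39H1, which trimethylates H3K9 in pericentric heterochromatin (chromosome X, 48695554 to 48709012, plus strand), had only 105 and 138 counts in siCBX3 and 212 and 213 counts in siNC. That is 2.98 and 3.64 CPM in siCBX3, against 5.63 and 5.06 CPM in siNC, with no overlap. It fell by 0.69 (SE 0.18, edgeR adjusted p 0.00227), the widest error among the members that changed. It shares 20.3% of its exon bases with AF196970.3 on the opposite strand, which had 24 and 54 counts in siCBX3 and 62 and 70 in siNC, and whether the counting used strand is not given in the sources used here. Its paralog SUV39H2 had 8.03 and 9.21 CPM in siCBX3 and 10.5 and 10.4 CPM in siNC, a log2 fold change of -0.28 (SE 0.13, edgeR adjusted p 0.0728). Library totals brought SUV39H2 under the threshold (-0.36, adjusted p 0.0261).

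The G9a and GLP methyltransferases, which act as a pair, did not pass the test. EHMT2 (G9a) had 100.0 and 96.1 CPM in siCBX3 and 92.6 and 99.8 CPM in siNC, so the groups overlapped, and EHMT1 (GLP) had 73.3 and 73.6 CPM in siCBX3 and 67.7 and 67.2 CPM in siNC. Their log2 fold changes were 0.03 and 0.12 (edgeR adjusted p 0.793 and 0.192). WIZ, a zinc finger partner of the EHMT1 and EHMT2 complex, had 18.7 and 16.2 CPM in siCBX3 and 16.3 and 17.9 CPM in siNC, which overlapped too (0.03, edgeR adjusted p 0.856). The signs of EHMT2 and WIZ turned with library totals, where each had -0.05.

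The HUSH complex, which silences transposons and new insertions with SETDB1 and MORC2, was split. PPHLN1 (periphilin), a HUSH subunit (chromosome 12, 42238447 to 42459715, plus strand), had 59.5 and 64.8 CPM in siCBX3 and 85.0 and 83.1 CPM in siNC. Its level was lower in both siCBX3 libraries, and it fell by 0.44 on the log2 scale (SE 0.08, edgeR adjusted p 6.25e-05). MORC2, the ATPase that compacts HUSH-bound chromatin (chromosome 22, 30925130 to 30968298, minus strand), had 61.6 and 58.3 CPM in siCBX3 and 83.6 and 76.5 CPM in siNC, without overlap.

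MORC2 fell by 0.42 (SE 0.08, edgeR adjusted p 0.000125). It shares 25.8% of its exon bases with MORC2-AS1 on the opposite strand, which had 64 and 53 counts in siCBX3 and 73 and 59 in siNC, far below the 2173 to 3224 counts of MORC2. FAM208A, the scaffold subunit also known as TASOR, had 76.1 and 85.5 CPM in siCBX3 and 67.1 and 72.4 CPM in siNC. Its rise of 0.21 (SE 0.08, edgeR adjusted p 0.0346) lost its call under 7 of 14 alternatives, including without siCBX3 replicate 2 (adjusted p 0.399) and without siNC replicate 1 (0.124), over a range of 0.00699 to 0.399. MPHOSPH8, the chromodomain subunit that reads H3K9 methylation, was the most abundant of the complex and had 239 and 247 CPM in siCBX3 and 233 and 210.4 CPM in siNC. It did not pass the test (0.13, edgeR adjusted p 0.147), though it did without siNC replicate 1 (0.21, adjusted p 0.0129).

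Both H4K20 methyltransferases among the members rose, where 24.4% of all tested genes were called higher. KMT5A, an H4K20 methyltransferase outside the members, did not pass the test (log2 fold change -0.03, edgeR adjusted p 0.793). KMT5B (chromosome 11, 68154863 to 68213828, minus strand), which adds further methyl groups to monomethylated H4K20 in heterochromatin, had 87.6 and 92.5 CPM in siCBX3 and 70.0 and 68.4 CPM in siNC. It rose by 0.38 (SE 0.08, edgeR adjusted p 0.000222), and its groups did not overlap. KMT5C (chromosome 19, 55339853 to 55348120, plus strand), its paralog, had 23.0 and 20.7 CPM in siCBX3 and 16.4 and 16.9 CPM in siNC.

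KMT5C rose by 0.39 (SE 0.10, edgeR adjusted p 0.00234), with adjusted p 0.0629 on log2(RPKM + 1) and 0.0576 on log2(RPKM + 0.1) with limma. Of the HP1-binding zinc finger proteins, POGZ, which takes part in releasing HP1 from mitotic chromosomes, had 83.7 and 87.1 CPM in siCBX3 and 72.3 and 69.2 CPM in siNC. POGZ rose by 0.27 (SE 0.08, edgeR adjusted p 0.00505), though not without siCBX3 replicate 2 (adjusted p 0.0709) or on log2(RPKM + 1) (0.0943). ADNP, which recruits HP1 and the remodeller CHD4 to chromatin, had 106 and 113 CPM in siCBX3 and 92.4 and 103 CPM in siNC. Its libraries nearly met, and its log2 fold change of 0.16 did not pass the test (edgeR adjusted p 0.0888). It passed without siNC replicate 2 (0.24, adjusted p 0.00965).

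The histone chaperones gave 1 rise and 1 fall among 4 genes, where 24.4% of all tested genes were called higher and 24.0% lower. CHAF1B, the middle subunit of the CAF-1 complex that deposits H3 and H4 on replicated DNA (chromosome 21, 36385378 to 36419015, plus strand), had 12.5 and 14.8 CPM in siCBX3, against 20.9 and 20.2 CPM in siNC. It fell by 0.59 (SE 0.11, edgeR adjusted p 6.49e-05). CHAF1A, the large CAF-1 subunit, which binds HP1, had 207 and 209 CPM in siCBX3 and 210.5 and 225 CPM in siNC. Its log2 fold change was -0.07 (SE 0.07, edgeR adjusted p 0.487), so of these CAF-1 genes CHAF1B alone was called.

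ATRX, the remodeller that deposits histone H3.3 in heterochromatin with DAXX (chromosome X, 77504878 to 77786269, minus strand), had 492 and 495 CPM in siCBX3 and 412 and 399.5 CPM in siNC. It rose by 0.28 (SE 0.07, edgeR adjusted p 0.00205), and both groups were tight. DAXX, the H3.3 chaperone, had 200.4 and 188 CPM in siCBX3 and 201.3 and 204.2 CPM in siNC, a log2 fold change of -0.06 (SE 0.07, edgeR adjusted p 0.504).

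Enzymes that remove the marks went both ways. Of 5 H3K9 demethylases 2 rose and 1 fell, and of 3 TET genes 1 rose and 0 fell. Of all tested genes 24.4% were called higher and 24.0% lower. On the further list given below, other H3K9 demethylases rose in 1 and fell in 2 of 8 genes. KDM4B (chromosome 19, 4969113 to 5153595, plus strand), which demethylates the higher methylation states of H3K9, had 46.6 and 42.1 CPM in siCBX3 and 26.5 and 30.8 CPM in siNC. It rose by 0.63 on the log2 scale (SE 0.09, edgeR adjusted p 4.27e-06). KDM4A, its paralog, had 55.4 and 56.2 CPM in siCBX3 and 43.0 and 44.5 CPM in siNC and rose by 0.35 (SE 0.08, edgeR adjusted p 0.000847).

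KDM4C, another paralog, had 47.0 and 48.2 CPM in siCBX3 and 44.4 CPM in each siNC library (0.10, edgeR adjusted p 0.323), and 32.1% of its exon bases lie under RP11-146B14.1 on the same strand. KDM3B, which acts on lower methylation states of H3K9, had 99.0 and 106 CPM in siCBX3 and 94.0 and 87.7 CPM in siNC. It did not pass the test (0.17, edgeR adjusted p 0.0700) but did without siNC replicate 1 (0.22, adjusted p 0.0187). KDM1A (LSD1), an amine oxidase that demethylates lower states of H3K4 and H3K9, had 96.4 and 97.0 CPM in siCBX3 and 115 and 113 CPM in siNC. KDM1A fell by 0.23 on the log2 scale (SE 0.07, edgeR adjusted p 0.0108), a call that ended without siCBX3 replicate 1 (adjusted p 0.0905) or siCBX3 replicate 2 (0.0749).

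TET2, a dioxygenase that starts the removal of DNA methylation (chromosome 4, 105145875 to 105279816, plus strand), had 25.96 and 28.15 CPM in siCBX3 and 19.1 and 16.4 CPM in siNC. Every siCBX3 library was above every siNC library, and TET2 rose by 0.61 (SE 0.10, edgeR adjusted p 2.12e-05). TET3 had 30.9 and 34.1 CPM in siCBX3 and 30.1 and 27.6 CPM in siNC (0.17, edgeR adjusted p 0.123). TET1 had 5.08 and 5.96 CPM in siCBX3 and 6.32 and 6.22 CPM in siNC (-0.18, edgeR adjusted p 0.343).

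The makeup of the paralog families is given as a description. The shares are parts of a family's summed RPKM in a library and carry no test, since 2 libraries against 2 cannot reach a permutation p of 0.05. UHRF1 made up 87.9% and 87.7% of the UHRF sum in siCBX3 and 92.8% and 92.5% in siNC, and the sum was 37.3 and 36.7 RPKM in siCBX3 against 62.3 and 62.2 RPKM in siNC. DNMT1 held 89.6% and 90.3% of the DNMT sum in siCBX3 and 91.8% and 91.5% in siNC. The DNMT sum was 77.9 and 77.5 RPKM in siCBX3 and 110.0 and 104 RPKM in siNC, so most of its difference lay in DNMT1.

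Within the de novo enzymes, DNMT3B was below DNMT3A in siCBX3 (RPKM ratio 0.801 and 0.747) and slightly above it in siNC (1.10 and 1.05). TET2 made up 33.9% and 33.3% of the TET sum in siCBX3 and 27.0% and 25.5% in siNC, with TET3 the largest part in each library. KDM4B held 17.1% and 15.5% of the KDM4 sum in siCBX3 and 12.4% and 13.9% in siNC. SUV39H1 gave 28.2% and 29.5% of the SUV39H sum in siCBX3 and 36.2% and 33.9% in siNC. CHAF1B, not a paralog but a CAF-1 partner of CHAF1A, gave 4.83% and 5.59% of their sum in siCBX3 and 7.69% and 7.03% in siNC. None of the shares and ratios given so far overlapped between the groups. DNMT3B's own share of the DNMT sum overlapped (4.63% and 4.16% in siCBX3, 4.31% and 4.36% in siNC), as did the EHMT shares, with EHMT2 at 80.5% and 79.9% in siCBX3 and 80.6% and 81.9% in siNC. The H4K20 pair overlapped as well, with KMT5B at 67.9% and 71.2% in siCBX3 and 70.2% and 69.1% in siNC. Such shares were not computed for other gene families.

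**Figure D4:**
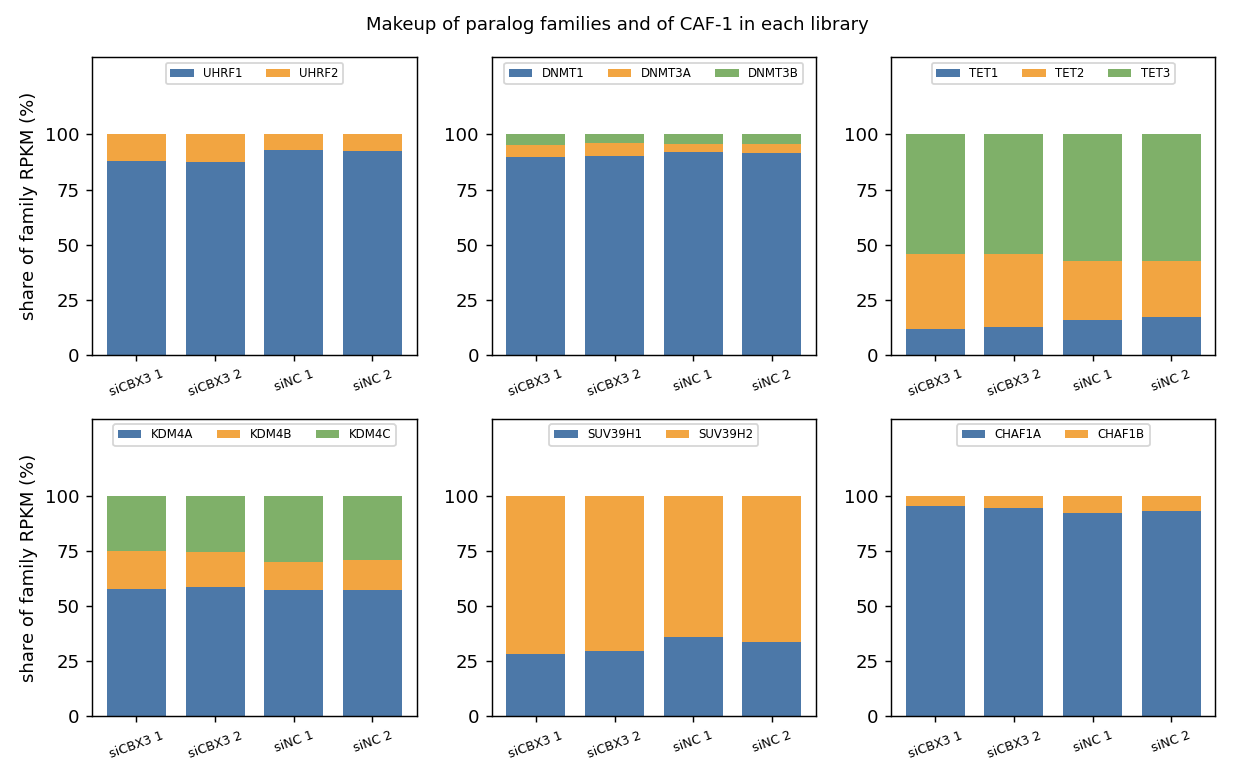
Share of each gene in the summed RPKM of 5 paralog families and of the CAF-1 pair, 1 bar per library, siCBX3 libraries left of siNC libraries. UHRF2 takes 12.1% and 12.3% of its family in siCBX3 and 7.22% and 7.49% in siNC, and TET2 a larger part of its family in both siCBX3 libraries.

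Chromosome 19 holds 7 of the 35 members. Those 7 include 3 that fell (DNMT1, UHRF1 and TRIM28), 2 that rose (KDM4B and KMT5C) and 2 not called (CHAF1A and WIZ). UHRF1 and KDM4B are neighbours on the same strand, 6958 bases apart, and they share no exon base with each other, yet UHRF1 fell and KDM4B rose. SETDB1 and POGZ, 437979 bases apart on chromosome 1, both rose. UHRF2 and KDM4C, 250586 bases apart on chromosome 9, both failed to pass the test. Of the 35 members 20 share no exon base with another tested gene, and refitting only such genes called 8 of these 20 higher and 4 lower. SETDB1 shares 13.4% of its exon bases, with CERS2 on the opposite strand as the main partner.

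Further genes of the same pathways were read from a list of 69, of which 68 were tested. Of these 10 rose and 28 fell (55.9% called), with a median log2 fold change of -0.13. The same fit called 48.4% of all tested genes (24.4% higher and 24.0% lower). It called 56.3% of those averaging 50 counts or more (29.1% higher and 27.2% lower), a total close to that of the list. That list is outside the members, and 18 fell without siCBX3 replicate 2. Methyl-DNA binding proteins led the rises. ZBTB38, a zinc finger protein that binds methylated CpG, had 111 CPM in siCBX3 and 28.9 CPM in siNC (means of 2 libraries; log2 fold change 1.95, edgeR adjusted p 8.55e-16), and ZBTB4, a related protein, had 62.9 CPM in siCBX3 and 19.99 CPM in siNC (1.65, edgeR adjusted p 2.06e-13). The histone deacetylase gene HDAC1 rose by 0.97 (edgeR adjusted p 2.46e-10).

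Falls in that list included LBR (-0.97), a lamina protein that binds HP1, and USP7 (-0.68), a deubiquitinase that stabilises UHRF1 and DNMT1. H3F3B, an H3.3 gene, fell as well (-0.72), while H3F3A, another H3.3 gene, did not pass the test (0.19, edgeR adjusted p 0.0575). Other DNA methylation factors rose in 3 and fell in 7 of 18 genes, other histone chaperones in 2 and 6 of 13, and other H3K9 methylation factors in 2 and 5 of 15. Other H3K9 demethylases rose in 1 and fell in 2 of 8, and other H4K20 and HP1-binding factors in 2 and 8 of 14. Of 27 tested KRAB zinc finger genes, whose products recruit TRIM28, 9 rose and 2 fell (40.7% called), with a median of 0.18. Beside these list counts, 48.4% of all tested genes were called, 24.4% higher and 24.0% lower. A link between the KRAB genes' values and the fall of TRIM28 was not tested.

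**Figure D5:**
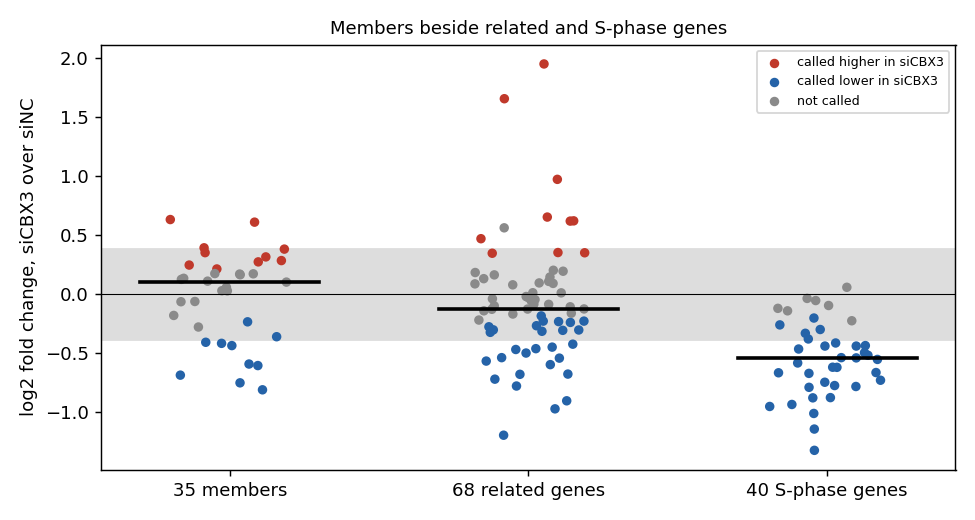
Log2 fold changes, siCBX3 over siNC, of the 35 members, 68 related genes and 40 S-phase genes, 1 point per gene coloured by call, black bars for medians and a grey band for the middle quartiles of all tested genes (-0.39 to 0.38). The S-phase genes centre on -0.54, the related genes on -0.13 and the members on 0.10.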

How the data were processed

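The authors deposited raw read counts per gene and RPKM values, 1 column per library, for 37450 features. Trimmomatic 0.36, STAR 2.5.3a, Subread 1.5.1 with its featureCounts, and build GRCh38 are named, without settings, per the submitters' processing notes. Dividing the deposited counts by exon length and by the total count of a library returned the deposited RPKM (largest relative difference 3.79e-07).

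Counts were analysed with edgeR 4.0.16 in R 4.3.3. Genes passed filterByExpr (minimum count 10, minimum total 15), which left 20999; libraries were TMM-scaled; the quasi-likelihood fit had group as its only term (2 residual and 22.0 prior degrees of freedom). Log2 fold changes are siCBX3 minus siNC, and the SE is their size over the root of F. Adjusted p-values are Benjamini-Hochberg over all genes tested. Alternatives used DESeq2 1.42.0, limma 3.58.1 and pseudocounts of 1 and 0.1 on RPKM. Exon overlaps came from the count table's coordinates. All 35 members are named, with up to 6 genes of smallest adjusted p from the related and S-phase lists. KMT5A and H3F3A of the related list are named besides, as relatives of named genes. The members and lists were chosen with earlier results of these data known. Values adjusted over a list alone are not given. Summaries and plots used Python 3.11.15.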

Additional observations from a re-analysis of the deposited data

How the results depend on the processing

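Of the 20 members called changed, 13 kept their direction and call under each of the 15 alternatives in which they could be fitted, and the exceptions were ATF7IP, FAM208A, POGZ, SETDB1, KMT5C, KDM1A and DNMT3B. Members called higher numbered 5, not 10, on log2(RPKM + 1) and on log2(RPKM + 0.1). The median member fold change of 0.10 became 0.022 with library totals, 0.055 with upper-quartile factors, 0.018 on log2(RPKM + 1), 0.021 on log2(RPKM + 0.1) and 0.175 among genes sharing no exon base, and lay between 0.070 and 0.098 when 1 library was left out (the lone library of a group was then assumed to vary like the other group's). The cause was not tested. The setting of genes sharing no exon base was chosen after seeing the data and by construction tests fewer genes. It called 5276 of 11029 genes (2597 higher, 2679 lower), 12 of 20 members (4 lower) and 19 of 24 S-phase genes (19 lower). Leaving out 1 library gave 15 to 21 called members (7 to 11 higher, 8 to 10 lower), with 40.2% to 45.8% of all genes called, and 18 to 26 fallen related genes. Sign reversals concerned 3 members that were not called: EHMT2 had -0.053 with library totals, -0.018 with upper-quartile factors, -0.047 on log2(RPKM + 1), -0.050 on log2(RPKM + 0.1), and between -0.025 and 0.084 without 1 library; WIZ had -0.053, -0.018, -0.035 and -0.049 under these settings, and between -0.077 and 0.126 without 1 library. UHRF2 had -0.022 with library totals, -0.018 on log2(RPKM + 1) and -0.021 on log2(RPKM + 0.1).

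Same-numbered libraries of the groups did not deviate together (correlation 0.029 over genes), so the numbers were not taken to pair them. With the replicate number as a block 21 members were called (11 higher, 10 lower; KDM3B added) and 10630 genes in all. Library totals moved the median of all genes to -0.085 and the calls to 4243 higher and 5917 lower. Depth limits SUV39H1, SUV39H2, SETDB2 and TET1, which had at most 439 counts in a library.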
